A study of Macaca mulatta with 12 samples.

Results

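A single unbroken run of 34 Ensembl identifiers held 37.3% of all RNA-seq counts in the hippocampus of adult male rhesus macaques (Macaca mulatta). The 34 members were chosen by their measured counts. The 10 genes with the highest counts summed over 12 animals were found, and every row whose identifier number lay between the lowest of them, ENSMMUG00000028670, and the highest, ENSMMUG00000028703, was included. The table has 28633 rows, and 0 numbers inside the run lack one. The samples came from 7 animals with chronic alcohol use, called the alcohol group, and from 5 controls, with 1 library each. The labels give no amount, duration or route of alcohol use, no ages in years and no batch. They number the samples within each group but name no animals, so the p-values measure the spread between these samples. Library names carry running numbers that do not mix the groups, and any batch that follows them cannot be told apart from alcohol use.

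The members were taken to be probable mitochondrial genes. The mitochondrial genome is a small circular DNA present in many copies per cell, which encodes core subunits of respiratory complexes I, III, IV and V together with the ribosomal and transfer RNAs needed to translate them. Both of its strands are transcribed as long precursors that are cut into single RNAs, and the remaining subunits of each complex are encoded in the nucleus and imported. Respiration supplies most of the energy that neurons use for signalling, and mitochondrial transcripts are abundant in brain RNA. This could not be checked by name. Of the 34 members, 0 were paired with a symbol in the name table, which did pair 15556 other rows of the count table. That name table holds all 13 symbols listed here for mitochondrially encoded proteins, under identifiers numbered from 65353 to 65387. The highest number in the count table is 37447, and 0 of those 13 identifiers have a row there. Members are therefore given by identifier only, with no gene name, position or sequence.

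The members fell into a high and a low class with a wide gap between them. The 15 high members, the 10 that set the run among them, each had at least 148169 counts summed over the 12 animals. The other 19 each had between 3 and 747. The low members held 1857 counts in all, or 0.00155% of the run's counts, and 0 of them were without a count in every animal. High and low members alternated along the run. Low members stood singly in 6 places between high ones, in a stretch of 2 in 1 place, in stretches of 3 in 2 places and in a stretch of 5 in 1 place, while 4 pairs of high members were direct neighbours. The plot of summed counts shows this alternation. Counts depend on the length of a transcript as well as on its level, and lengths were not available, so the order of the members by count is not an order of their levels. Whether counting used strand, and how reads shared by neighbouring genes were assigned, are not given in the sources used here, so neighbouring members may share reads.

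**Figure D1:**
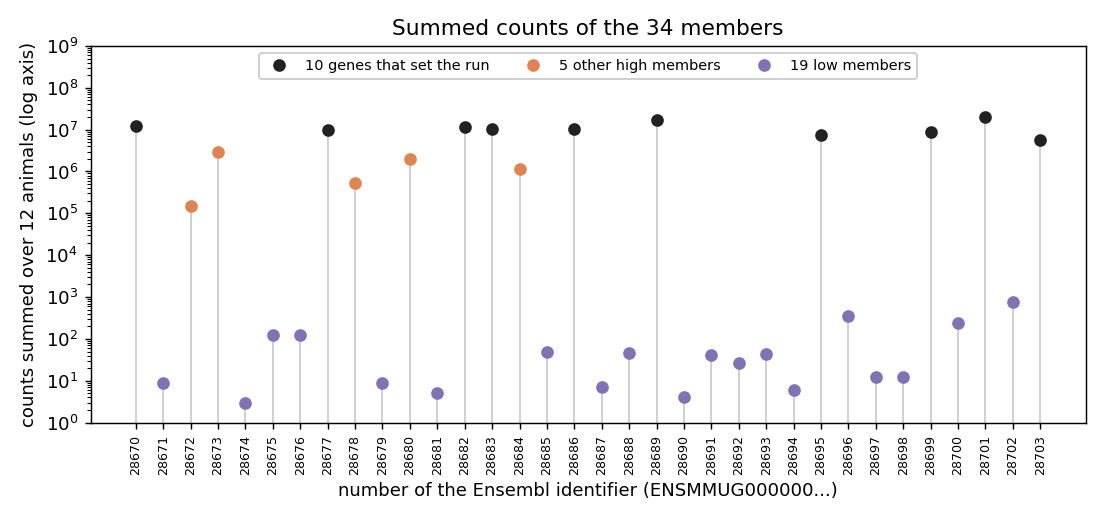
Counts summed over 12 animals (vertical log axis) for each of the 34 members, in the order of their identifier numbers (horizontal axis). The 15 high members lie at 148169 counts or above and the 19 low members at 747 or below, in alternation.

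The boundaries of the run were set by rank. The tenth gene, ENSMMUG00000028703, had 5705922 summed counts. The eleventh, MBP (myelin basic protein, a main protein of the myelin sheath), had 3245903 and lies outside the run. The twelfth, thirteenth and fourteenth genes were again members, ENSMMUG00000028673, ENSMMUG00000028680 and ENSMMUG00000028684, with 2936615, 1959558 and 1168956 counts. The rows next to the run resembled its low members in count. Below it, ENSMMUG00000028669 and ENSMMUG00000028668 had 110 and 336 summed counts, and above it ENSMMUG00000028704 had 158.

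The run took a large share of every library. In the alcohol group it held between 35.8 and 40.4% of an animal's counts, with a median of 39.0% and a mean of 38.4% ± 1.84 (SD, n = 7). The controls held 36.4, 37.9, 38.8, 33.2 and 33.2% in animals 1 to 5, a mean of 35.9% ± 2.6 (SD, n = 5). The means differed by 2.47 percentage points, about the size of the spread within a group, and the groups overlapped. Controls 4 and 5 were the only animals under 35.8%, and the other 3 controls lay within the range of the alcohol group. No test was made, since the share is a score over members chosen by their counts. Counting error was small beside these differences, with 95% Wilson intervals at most 0.0416 percentage points wide, an interval that covers counting error only. Counts outside the run averaged 16796897 in the alcohol group and 16654501 in controls, with SDs of 2.88e+06 and 2.73e+06. Those in the run averaged 10461994 and 9274633, with SDs of 1.81e+06 and 1.17e+06. Raw counts follow the depth of sequencing, so these means do not show which part of the library changed. Total counts ranged from 21104369 to 33020717.

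**Figure D2:**
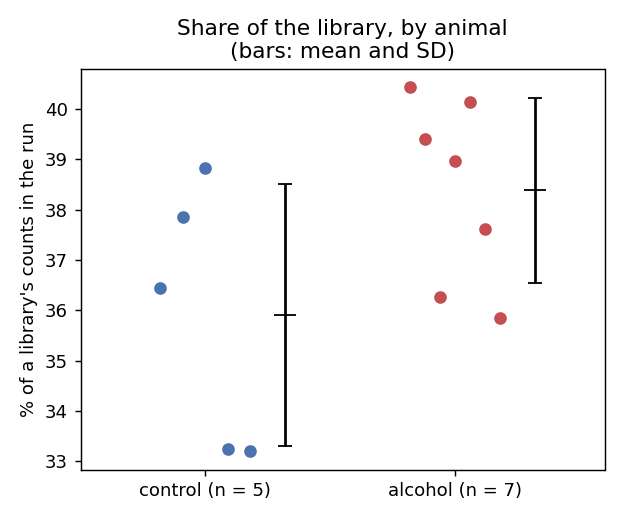
Percentage of each library's counts held by the run (vertical axis) in 5 control and 7 alcohol animals. Each point is an animal and the bars give the mean and SD. The controls reach from 33.2 to 38.8% and the alcohol animals from 35.8 to 40.4%.

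Markers of the tissue were present. SNAP25 and SYT1, synaptic proteins of neurons, stood at 3337 ± 262 and 1797 ± 239 CPM in the alcohol group (SD, n = 7). CPM are counts per 1000000 counts of the library, after its size was adjusted by a TMM factor (trimmed mean of M values). These factors averaged 0.977 ± 0.0379 over the 7 alcohol animals and 1.04 ± 0.0577 over the 5 controls. GFAP of astrocytes, MBP and MOG of oligodendrocytes, CSF1R of microglia, and PROX1 and NEUROD1 of hippocampal neurons were also detected. Of 14 tested markers in these lists edgeR called 0, with 1, PROX1, at an unadjusted p under 0.05, beside 18.3% of all tested genes. PROX1 averaged 3.51 ± 0.650 CPM over the 7 alcohol animals and 5.25 ± 1.15 CPM over the 5 controls, or -0.59 on the log2 scale (edgeR adjusted p = 0.0833). The DESeq2 Wald test and limma-voom with sample quality weights each called 1 marker of the PROX1 list lower. Over all 14533 tested genes they called 550 and 911 lower. CLDN5 of endothelium and TTR of choroid plexus had no row under the identifiers paired with them. The 3 oligodendrocyte markers summed to between 5552 and 15634 CPM (median 13329) in the alcohol group and between 7773 and 13310 CPM (median 8643) in controls. In the same order, the medians were 47.3 and 37.0 CPM for the 2 microglial markers, 323 and 391 CPM for the 2 astrocyte markers and 6320 and 6301 CPM for the 5 neuronal markers, and 25.5 and 26.1 CPM for PROX1 and NEUROD1 together. The part of cell composition in the results below was not tested, and in tissue RNA fewer cells of a type and less RNA per cell cannot be told apart.

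The members were compared between groups in a fit over all 14533 genes that passed the filter on low counts. Of the 34 members 19 passed it, the 15 high members and 4 low ones, and the other 15 had too few counts to test. In the alcohol group 1 member rose and 0 fell at an adjusted p under 0.05 in edgeR's quasi-likelihood test, where 1.38% of all tested genes were called and 0.427% were called higher. Fitted levels were higher with alcohol in 18 of the 19 members, against 50.5% of all tested genes, and their median log2 fold change was 0.19, against 0.00 over all genes. For the 15 high members the median was 0.18. With libraries scaled by their totals alone, 15 of the 19 were higher and 4 lower, against 33.2% higher among all genes, and the medians were 0.11 and -0.08. Without the filter on low counts the median over all 34 members was 0.33. Of the 200 calls over all genes 62 were higher, and with library totals alone 40 of 234. An unadjusted p under 0.05 with a higher level was reached by 7 members, 5 high and 2 low, and by 7.54% of all tested genes. The high members share a library and, as shown further on, varied together, so these counts do not stand for independent observations.

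The member that rose was ENSMMUG00000028680. Its levels in the alcohol group ran from 6231 to 8348 CPM with a median of 6647 CPM. The controls had 5314, 4778, 5692, 4703 and 4936 CPM in animals 1 to 5. Every alcohol animal lay above every control, with the nearest pair being alcohol 6 and control 3. The means were 6881 ± 774 CPM (SD, n = 7) and 5084 ± 413 CPM (SD, n = 5). On the log2 scale the fitted change was 0.44 with an SE of 0.09, which passed edgeR's test (adjusted p = 0.0344). It was the only tested member without overlap between the groups. Over all tested genes 0.812% lay above and 1.19% below the controls without overlap. The call was close to the threshold. It was lost when alcohol 1, 2, 4, 5 or 7 or control 2, 4 or 5 was left out, with adjusted p between 0.0506 and 0.133, although the log2 fold change stayed between 0.38 and 0.48 whichever animal was left out. In those 8 fits at most 1 gene of the whole table was called.

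Among the genes that set the run, ENSMMUG00000028703 and ENSMMUG00000028683 came nearest to the threshold after it. ENSMMUG00000028703 ran from 16652 to 24446 CPM in the alcohol group, with a median of 19707 CPM. The controls had 19251, 14166, 15478, 12841 and 13255 CPM. Control 1 alone reached into the range of the alcohol animals, and the other 4 controls lay below all of them. Its fitted change was 0.42 on the log2 scale, with an SE of 0.11 and an adjusted p of 0.0722 in edgeR. It was called in 4 of 25 alternatives, among them the DESeq2 Wald test (adjusted p = 0.0106) and the fit without control 1 (adjusted p = 0.0496). ENSMMUG00000028683 ran from 29213 to 38273 CPM with a median of 34304 CPM in the alcohol group. In controls it stood at 28590, 29169, 34300, 24305 and 23012 CPM. Control 3 lay among the alcohol animals and controls 4 and 5 well below them. The fitted change of 0.31 on the log2 scale had an SE of 0.10 and an adjusted p of 0.124 in edgeR, and 3 of 25 alternatives called it.

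ENSMMUG00000028701, the gene with the most counts of the whole table, had a fitted log2 change of 0.29 with an SE of 0.13 (adjusted p = 0.267 in edgeR). Its values were spread widely in both groups, from 54420 to 86431 CPM with alcohol and from 43865 to 70352 CPM in controls. ENSMMUG00000028670 and ENSMMUG00000028682 had nearly equal log2 fold changes of 0.18 each (SE 0.09 and 0.10, edgeR adjusted p = 0.327 and 0.340). ENSMMUG00000028677 stood at 0.17, ENSMMUG00000028686 at 0.14, ENSMMUG00000028699 at 0.13 and ENSMMUG00000028695 at 0.06, with adjusted p from 0.436 to 0.781 in edgeR. None of these 6 passed the test in any alternative, and each had groups that overlapped.

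ENSMMUG00000028689, second of all genes by count, was the only tested member with a lower fitted level. The alcohol group ran from 45879 to 59313 CPM with a median of 52990 CPM, and the controls had 52996, 60573, 61337, 47359 and 47218 CPM. The groups overlapped throughout, and the fitted log2 change was -0.02 with an SE of 0.09 (adjusted p = 0.940 in edgeR). Its sign changed between alternatives and was positive in 7 of 25. The largest fitted rise belonged to a low member, ENSMMUG00000028676, at 0.98 on the log2 scale with an SE of 0.46 (adjusted p = 0.270 in edgeR). That estimate rests on 2 to 28 counts per animal. The member failed the filter on low counts when alcohol 1, 3, 4 or 6 was left out, and passed it whichever control was left out. The filter takes group size into account, and leaving out a control shrinks the smaller group, so these fits are not alike. Controls 2 and 5, with 11 and 12 counts, also exceeded the filter's minimum count of 10. Whether the member was tested thus depended on single alcohol animals, though not on them alone. Its rise is no support for a rise of the run. The alcohol animals had from 0.228 to 0.979 CPM, and the controls 0.122, 0.377, 0.0984, 0.121 and 0.439 CPM, with overlap.

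**Figure D3:**
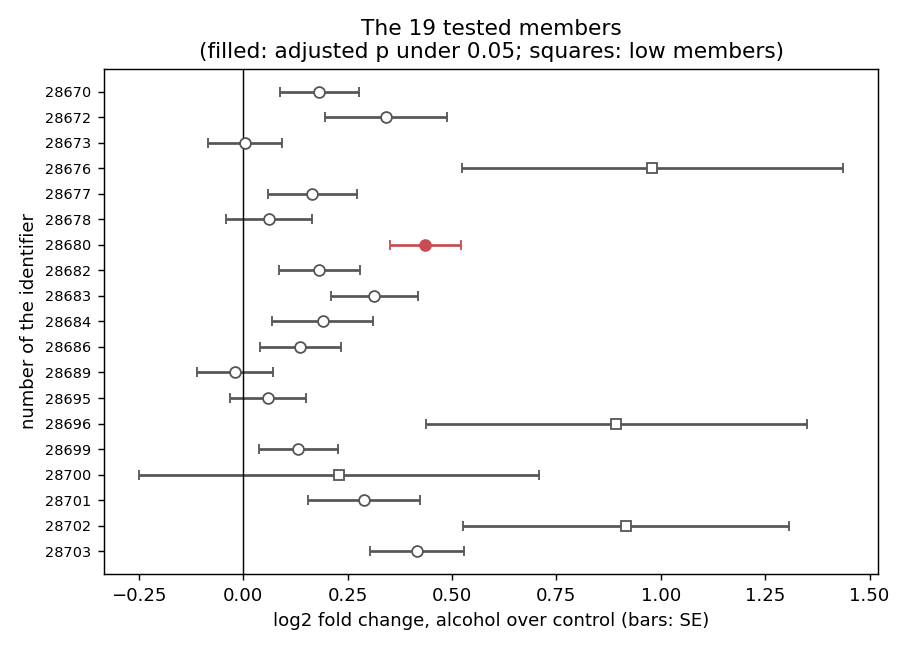
Log2 fold change of alcohol over control (horizontal axis, bars give the SE) for the 19 tested members, by identifier number (vertical axis). ENSMMUG00000028680 at 0.44 is filled because it passed the threshold. The 4 low members, drawn as squares, have SEs of 0.39 to 0.48, and the 15 high members 0.09 to 0.15.

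The makeup of the run was then described by each member's share of the run's own counts, which does not depend on how the rest of the library was scaled. ENSMMUG00000028689 held from 12.9 to 13.9% of the run in the alcohol group, with a median of 13.6%. In controls it held 14.6, 16.3, 15.2, 15.5 and 15.6%. All 7 alcohol animals lay below all 5 controls, and the means were 13.5% ± 0.378 (SD, n = 7) and 15.5% ± 0.611 (SD, n = 5). It was the only high member whose share did not overlap between groups. On the same scale, counts relative to those of the run, 0.633% of all tested genes lay below and 0.0619% above the controls without overlap. ENSMMUG00000028680 held from 1.62 to 1.94% of the run with alcohol and 1.47, 1.29, 1.41, 1.54 and 1.63% in controls. Here alcohol 2 and alcohol 4, at 1.62 and 1.63%, lay level with control 5. Among the 15 high members the mean share was higher with alcohol in 8 and lower in 7.

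These shares were set on a test by refitting all genes with each library scaled to the counts of its run, an alternative chosen after the data were seen. It shifted the median log2 fold change of all tested genes to -0.18, and of the members to 0.01. Dividing by the run's own counts holds the members as a group near 0 by construction. Their median in this fit therefore does not measure whether they rose. In that fit 1.01% of all genes were called, 1 higher and 146 lower, and 0 of the 19 members. At an unadjusted p under 0.05 in the same edgeR fit there were 5 of the 19 members, beside 3467 of all 14533 tested genes. Measured against the run, ENSMMUG00000028689 stood at -0.20 with an SE of 0.06 (edgeR adjusted p = 0.0723) and ENSMMUG00000028680 at 0.25 with an SE of 0.08 (edgeR adjusted p = 0.0837). ENSMMUG00000028703 followed at 0.24 (adjusted p = 0.126), ENSMMUG00000028673 at -0.18 (adjusted p = 0.178) and ENSMMUG00000028683 at 0.14 (adjusted p = 0.194). A change in the makeup of the run was therefore not called for any single member at this number of animals.

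**Figure D4:**
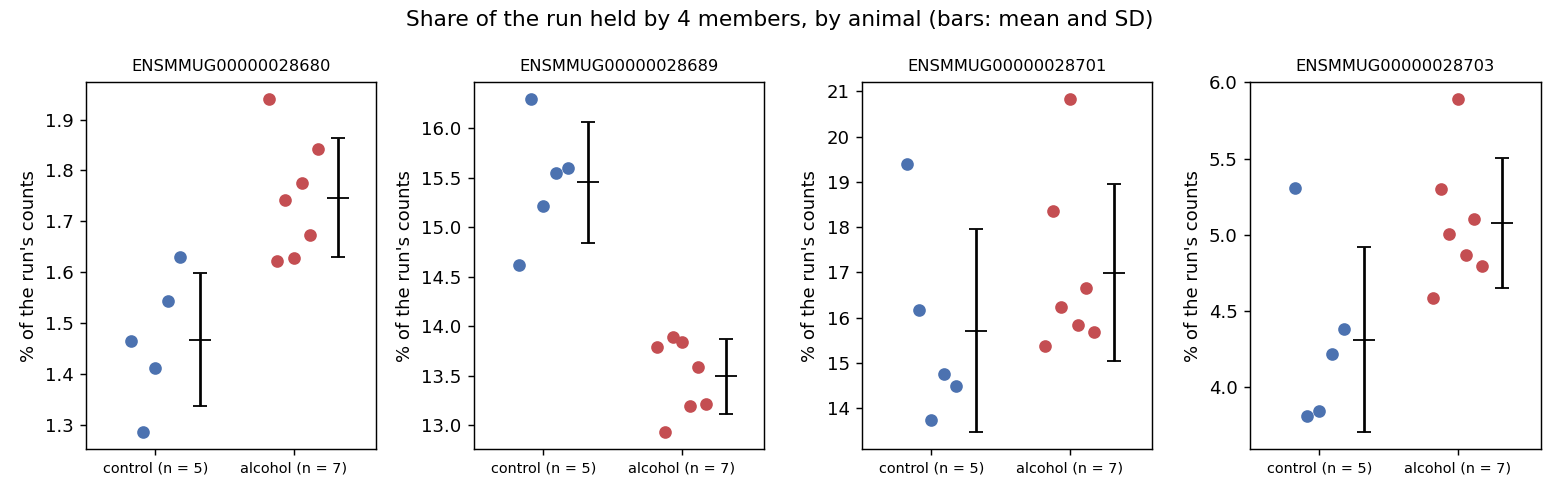
Percentage of the run's counts held by 4 members (vertical axes, which do not start at 0) in 5 control and 7 alcohol animals. Points are animals and bars the mean and SD. ENSMMUG00000028689 separates the groups, at 12.9 to 13.9% with alcohol and 14.6 to 16.3% in controls, and the other 3 members overlap.

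The tested members did not all vary together between animals. Pearson correlations of log2 CPM over the 12 animals, after group means were removed, are given as a description. The points share a library and its scaling, and the sets below were seen in these values. The largest set held 11 of the 15 high members, with r from 0.49 to 0.94 over 55 pairs and a median of 0.76. ENSMMUG00000028701 and ENSMMUG00000028703, separated in the run by a single low member, had r = 0.94 with each other. With the other 11 the median r of this pair was 0.31, from -0.04 to 0.66. Together they took 24.7% of the run in control 1 and 26.7% in alcohol 4, and between 17.6 and 23.7% in the other 10 animals. The ratio of their counts lay between 3.24 and 3.54 in the alcohol group, and in controls it was 3.65, 4.24, 3.58, 3.50 and 3.31. Control 2 stood highest and the groups overlapped. Without this pair the run held 29.9% ± 1.62 of the counts over the 7 alcohol animals and 28.7% ± 2.31 over the 5 controls (means ± SD), a difference of 1.19 percentage points in place of 2.47.

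Another set joined 2 high members with the 4 tested low members. ENSMMUG00000028672 and ENSMMUG00000028684, which had 148169 and 1168956 summed counts, and the 4 low members had r from 0.53 to 0.92 over 15 pairs, with a median of 0.81. The 4 low members had a median r of 0.05 with the 11 high members of the first set, from -0.24 to 0.47. The sets were not cleanly apart. With the same 11, ENSMMUG00000028684 had r from 0.32 to 0.73 and ENSMMUG00000028672 from 0.03 to 0.50. ENSMMUG00000028672 stood highest in alcohol 1, 3, 6 and 5, at 629, 577, 543 and 541 CPM, and in control 2, at 520 CPM. The other 6 animals besides alcohol 7 (446 CPM) lay between 343 and 410 CPM. ENSMMUG00000028684 was also highest in these 5 animals, at 4633, 4154, 4152, 4062 and 4131 CPM, and the rest had at most 3686 CPM. ENSMMUG00000028702, the low member with the most counts, had 121, 126, 132, 55 and 84 counts in those 5 animals and between 13 and 45 in the other 7. The 5 libraries held 23105117 to 33020717 counts in all and the other 7 held 21104369 to 30410419, so the ranges overlapped. Over the 12 animals the summed CPM of the low members and the total counts had r = 0.68 and Spearman rho = 0.59, and r = 0.46 without alcohol 1 and 3, whose totals lay farthest from the median. Both values share the library total. All 19 low members together came to 2.46 to 10.8 CPM by library size in the alcohol group, with a median of 5.58 CPM, and to 2.69, 8.05, 1.71, 3.22 and 4.30 CPM in controls 1 to 5. A level of 3 counts corresponds to 0.0909 to 0.142 CPM in these libraries, and the 15 untested low members had 3 to 126 counts summed over all animals.

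**Figure D5:**
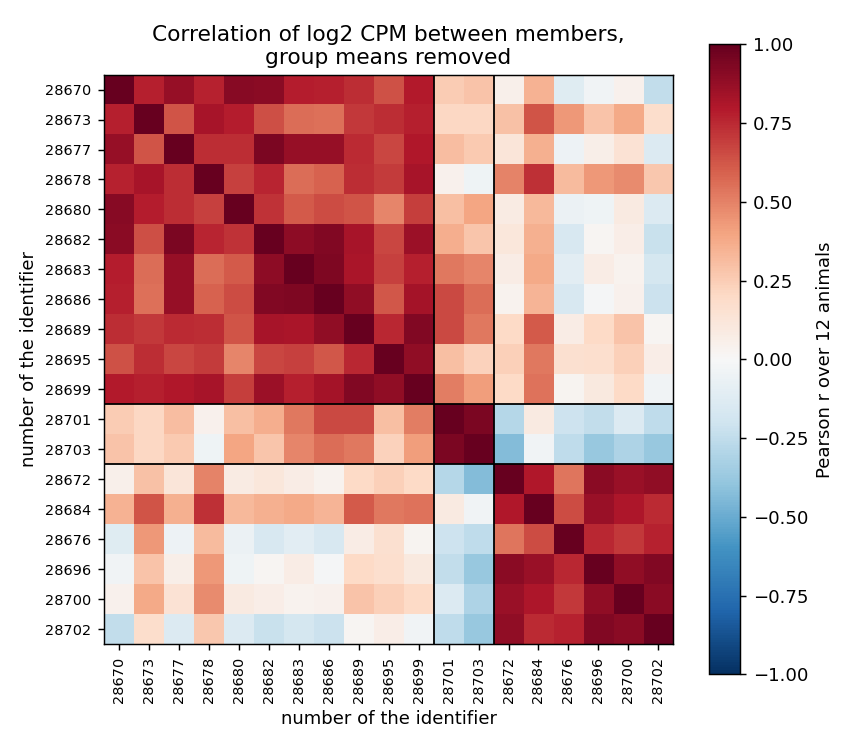
Pearson r of log2 CPM over 12 animals, with group means removed, for each pair of the 19 tested members (both axes, by identifier number, colour from -1 to 1). Lines separate 11 high members, the pair ENSMMUG00000028701 and ENSMMUG00000028703 (r = 0.94), and the set of ENSMMUG00000028672, ENSMMUG00000028684 and 4 low members.

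The nuclear genes that work with the mitochondrial genome could be read by symbol. In a list of 11 regulators and subunits, 8 had a row and 0 were called by edgeR's quasi-likelihood test. Unadjusted p under 0.05 was reached by 2 higher and 2 lower, beside 18.3% of all tested genes in either direction and 7.54% higher. With the DESeq2 or limma-voom tests 0 were called. TFAM, which packages mitochondrial DNA and starts its transcription, averaged 19.5 ± 1.53 CPM over the 7 alcohol animals and 17.3 ± 0.888 CPM over the 5 controls (means ± SD), or 0.17 on the log2 scale (edgeR adjusted p = 0.239). LRPPRC, which stabilises mitochondrial messenger RNAs, stood at -0.14 (adjusted p = 0.249), and PPARGC1A, a coactivator of mitochondrial biogenesis, at 0.05 (adjusted p = 0.898). The median of the 8 was 0.08, with 6 higher and 2 lower, but 5 of the 8 were lower with library totals alone and 7 when scaled to the run. With those scalings 33.2 and 17.4% of all tested genes were higher.

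A wider list of nuclear subunits of complexes I to V was drawn up after the data were seen. The name table holds 63 symbols of this list, with 40 rows in the count table. Of its 39 tested genes 5 rose with alcohol and 0 fell, beside 0.427% of all genes called higher. These calls depended on single animals. There were 0 when alcohol 1, 2, 4, 5 or 7 or control 2, 4 or 5 was left out, 2 without control 1, 8 without alcohol 6 and 10 without control 3. Calls over the whole table moved in the same way. Without control 1, alcohol 6 and control 3, 43, 177 and 151 of all tested genes were called higher, and 0 in the other fits named here. Library totals alone gave 3 calls, scaling to the run 0, the DESeq2 Wald test 15 and limma-voom with sample quality weights 18. Over all 14533 tested genes these fits called 40, 1, 346 and 529 higher. Fitted levels of the subunits were higher in 34 and lower in 5, with a median log2 fold change of 0.20, and with library totals alone in 31 and 8, with a median of 0.12. Scaled to the run's counts, 22 were higher and 17 lower, with a median of 0.02. In the same order of fits, 50.5, 33.2 and 17.4% of all tested genes were higher. The 5 that rose were NDUFA1 (log2 fold change 0.40, edgeR adjusted p = 0.0336), NDUFB1 (0.35, adjusted p = 0.0344) and NDUFB2 (0.35, adjusted p = 0.0457) of complex I, the NADH dehydrogenase that feeds electrons into the chain, SDHC (0.38, adjusted p = 0.0422) of succinate dehydrogenase, and COX7B (0.33, adjusted p = 0.0446) of cytochrome c oxidase. For NDUFA1 the means were 99.97 ± 9.12 CPM over the 7 alcohol animals and 75.8 ± 3.95 CPM over the 5 controls (means ± SD), and NDUFA1 and NDUFB1 were without overlap between groups. By complex, edgeR called 3 of 18 tested genes of complex I, 1 of 4 of complex II, 0 of 5 of complex III, 1 of 4 of complex IV and 0 of 8 of complex V. The name table holds 30, 4, 6, 10 and 13 symbols of complexes I to V, so most complexes were covered in part. An unadjusted p under 0.05 was reached by 1 gene of complex III and 6 of complex V, all higher, beside 7.54% of all tested genes. The DESeq2 Wald test called 0 genes of complex III and 4 of complex V higher, and limma-voom with quality weights 1 and 5. The name table holds 69 symbols of mitochondrial ribosomal proteins, with 39 rows in the count table. Of these 39 edgeR called 0, with 15 higher and 1 lower at an unadjusted p under 0.05, beside 7.54% of all tested genes higher. The DESeq2 Wald test called 6 higher and 1 lower, and limma-voom with quality weights 12 higher and 1 lower. Over all 14533 tested genes those tests called 346 and 529 higher, and 550 and 911 lower. Fitted levels of the ribosomal proteins were higher in 33 and lower in 6, with 26 and 13 by library totals alone, and with 15 and 24 when scaled to the run. Beside these stand the same 50.5, 33.2 and 17.4% of all tested genes. The median log2 fold changes of these ribosomal proteins, the subunits and the tested members of the run were 0.15, 0.20 and 0.19. With library totals alone they were 0.07, 0.12 and 0.11, against -0.08 over all tested genes. Scaled to the run they were -0.03, 0.02 and 0.01, against -0.18 over all tested genes. In that fit the median of the members lies near 0 by construction.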

How the data were processed

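Libraries were made from hippocampal RNA with a stranded total RNA kit, per the labels' protocols. The authors deposited whole-number read counts per Ensembl gene, 1 column per sample, all 12 matched by library name. STAR 2.6.1a and Salmon 0.11.2 are named, without a role, in the submitters' processing notes. The build, annotation release, strand setting and filters are not given in the sources used here. The members and gene lists were chosen with earlier results of these data known.

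Counts were fitted with edgeR 4.0.16 (R 4.3.3): filterByExpr (minimum count 10, total 15), TMM factors, glmQLFit and glmQLFTest with no covariates, and Benjamini-Hochberg adjustment over all tested genes, with calls at an adjusted p under 0.05. The SE is the size of the log2 fold change divided by the square root of F. Correlations used log2 CPM with a prior count of 2. The fit was tested on simulated data. Alternatives covered scaling, filter, tool (DESeq2 1.42.0, limma 3.58.1), a replicate block and leaving out each animal. Replicate numbers 1 to 5 occur in both groups, and the labels do not say whether they pair animals. Deviations from the group means had a mean correlation of -0.06 between animals of the same number. This cannot show whether such animals were matched by design or handling.

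Members named with values are the 10 genes that set the run, called members, the largest rise and fall, and both ends of the run. Other members and symbols given with values were chosen after their values were seen. The name table paired 15556 of 28633 rows, and 0 of 44631 genes in the RefSeq list carried an Ensembl identifier.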

Additional observations from a re-analysis of the deposited data

Results flagged for a closer look

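The run's share, the summed low members, and the levels and shares of the 12 named members gave 52 sets of values within a group, each examined for 1 animal apart from the others. The gap test used (Dixon's, at its 95% level) picks out about 1 group in 20 by chance, and 3 animals were picked out. Control 3 had 43268 CPM of ENSMMUG00000028670, and the other 4 controls had between 32272 and 34087 CPM. Control 1 had 6.88% of the run in ENSMMUG00000028699, against 7.45 to 7.64% in the other controls. In alcohol 6, ENSMMUG00000028676 held 0.000263% of the run, against 5.57e-05 to 0.000136% in the other alcohol animals, from 28 counts.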

How the results depend on the processing

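The number of members called, 1 in the reported fit, was 3 in the DESeq2 Wald test and 3 in limma-voom with sample quality weights (896 and 1440 genes in all, against 200). It was 0 with libraries scaled to the run's counts. There the members' median log2 fold change of 0.011 lies near 0 by construction, and the median over all tested genes was -0.18. Among the 10 animals that share a replicate number, 2 members were called without the replicate block (449 genes in all). With the block 0 were called (0 genes in all, 2646 at an unadjusted p under 0.05 in edgeR). Leaving out 1 animal gave 0 to 2 called members and 0 to 514 called genes. It gave 1 to 3 members without overlap, with 3 when control 3 was left out and 2 without control 1. A smaller group separates more easily for any gene, and genes without overlap over the whole table were not counted in these sets. Whether the rise to 2 and 3 members exceeds that of all tested genes was therefore not tested. As a ratio to the counts outside the run, the difference in the run's share was 6.18 percentage points, on another scale by construction.

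Among the members chosen by the naming rule, 5 changed sign in some alternative. ENSMMUG00000028689 was at 0.052 in limma-voom with quality weights, 0.033 without and 0.040 with the replicate block, and from -0.063 to 0.036 when 1 animal was left out. Scaled to the run, ENSMMUG00000028686 was at -0.037, ENSMMUG00000028677 at -0.0018, ENSMMUG00000028699 at -0.043 and ENSMMUG00000028695 at -0.11, the last also at -0.018 with library totals alone. Other tested members changed sign too, among them ENSMMUG00000028673 from 0.01 to -0.18 scaled to the run and ENSMMUG00000028700 from 0.23 to -0.12 without alcohol 1. Of the 295 values of the named members' fold changes in these alternatives, 266 kept their sign and side of the threshold. Scaling to the run takes out the change that the members share, by construction. For the other shifts the cause was not tested.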

Other observations

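Outside the run, the genes whose log2 CPM followed that of the summed run most closely over the 12 animals, group means removed, were ENSMMUG00000031415, which has no symbol (r = 0.94), and MYG1, an exonuclease found in mitochondria and nucleus (r = 0.92). The next 2, named after their values were seen, were SDHD (r = 0.92), a membrane subunit of succinate dehydrogenase, and PDHB (r = 0.89), a subunit of pyruvate dehydrogenase. MYG1 averaged 44.9 ± 3.01 CPM over the 7 alcohol animals and 41.6 ± 4.47 CPM over the 5 controls (means ± SD), and SDHD 39.2 ± 4.26 and 37.0 ± 8.60 CPM. None of these 4 was called between groups by edgeR (adjusted p from 0.437 to 0.798). These are the highest of 14514 correlations with the same summed value, over animals that share its scaling, and are given as a description.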
